A study of Mus musculus with 18 samples.

Results

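Dense clusters of accessible regions were described in mouse embryonic stem (ES) cells, using ATAC-seq peak lists of 18 libraries. Peaks of all 18 lists that share 1 bp or more were merged into 377189 regions, of which 365034 lie on chromosomes 1 to 19. Of these, 29836 had a peak in all 9 control libraries and are called control-shared regions here. Fixed tiles of 20 kb were laid over each chromosome, and a tile was kept when it held the midpoints of 4 or more control-shared regions. This left 72 dense tiles, 0.0751% of the 95817 tiles with any region, and 305 control-shared regions in them, 1.02% of all control-shared regions. The control lists thus chose the members, and a peak in every control library is true of each member by the rule, not a result.

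The study concerned topoisomerase II (TOP2) and the chromatin remodeller BAF. Replicates are passages of one line, and p-values therefore reflect only how passages and libraries vary. Wild-type ES cells received 1 µM ICRF-193, an inhibitor of TOP2, or DMSO, for 24 h (2 libraries per group) or for 1 h (3 libraries per group). The 1 h duration comes from the titles and the design text, while the treatment protocol gives 24 h for every wild-type sample. Brg1 fl/fl; Actin-CreER cells and Baf53a fl/-; Actin-CreER cells received 0.8 µM tamoxifen, which switches on Cre to delete the floxed gene, or ethanol (2 libraries per group). Both lines had 24 h of tamoxifen or ethanol and then 48 h in fresh medium. The Baf53a ethanol controls already lack 1 Baf53a allele, whereas the Brg1 ethanol controls start from 2 floxed alleles. All cells grew in serum-LIF medium on gelatin, and viable cells were sorted before transposition.

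In ATAC-seq a transposase cuts DNA that is free of nucleosomes, so promoters and enhancers in use appear as peaks. Brg1 is the ATPase that lets BAF slide and evict nucleosomes, Baf53a is an actin-related subunit of the same complex, and TOP2 passes one DNA duplex through another to release tangles and torsion. Runs of open sites a few kilobases apart occur where promoters lie close together in gene clusters and where several enhancers stand side by side. Peaks are known here by position in mm9 only, and no gene annotation of that build was used, so the tiles carry no gene names. The ES cell markers and the loci of the deleted genes were not analysed here.

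The 72 tiles were mostly at the threshold: 63 held 4 control-shared regions, 4 held 5, 2 held 6 and 3 held 7. Among the tiles outside, 583 held 3 control-shared regions, 4069 held 2 and 19644 held 1. Regions just inside the threshold (252 regions in tiles with 4) had a median width of 629.5 bp, and regions just outside it (1749 in tiles with 3) 681 bp. Their nearest control-shared neighbour lay at a median distance of 1401.5 bp inside and 3406 bp outside. A peak in all 18 libraries was found for 58.7% of the regions inside and 61.0% of those outside.

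Regions of dense tiles were narrower and lower in their lists than the other control-shared regions. Their median width was 600 bp (119 to 1916 bp), against 778 bp for the other 29531. The deposited score of a peak was turned into its percentile within its own list, and the mean over the 9 controls had a median of 75.0 in dense tiles and 79.6 elsewhere. When all control-shared regions were split by this percentile into 5 classes of equal size, 29.5% of dense-tile regions fell into the weakest class and 13.1% into the strongest, against 19.9% and 20.1% of the others. Close spacing follows from the rule: 36.1% of dense-tile regions had the next one less than 1000 bp away, against 5.42% of the others. The most similar tiles, those with 3 regions, ranked nearly as low: regions just inside the threshold had a median percentile of 76.1 and those just outside 76.4. Of the regions just inside, 27.4% fell into the weakest class and 13.9% into the strongest, against 25.4% and 13.8% of those just outside. These properties come from the control lists that made the choice, so no test was run on them.

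The tiles also held regions that the controls did not all share. A tile contained a median of 8 merged regions of any kind (4 to 17), 611 in all, of which 306 were absent from at least 1 control and 111 appeared in 1 library only. Within a tile, neighbouring control-shared regions lay a median of 2704 bp apart.

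Dense tiles were spread unevenly over the chromosomes. Chromosome 8 had the most with 10 tiles (2.02 per 1000 tiles with a region), followed by chromosome 13 with 8 (1.67 per 1000) and chromosome 17 with 6 (1.54 per 1000). Chromosomes 5 and 9 also held 6 each, and chromosomes 15 and 18 held none. Another dense tile lay within 1 Mb for 21 of the 72. The longest unbroken run covered 4 tiles at chr11:3020001-3100000, and a run of 2 lay at chr8:19680001-19720000. Of the 72 tiles, 6 with 34 regions lay under 1 Mb from the first peak of their chromosome, on chromosomes 7, 9 and 11. How much of the peak signal at these chromosome starts comes from repeated sequence was not tested, since the lists hold positions and scores only.

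The 5 tiles with the most control-shared regions were not alike. Tile chr11:3020001-3040000 held 7, with a mean of 11.8 ± 1.48 peaks over the control libraries (SD, n = 9), and its neighbour chr11:3040001-3060000 held 7 with 11.8 ± 2.11 peaks. Tile chr9:3020001-3040000 held 7 with 8.44 ± 0.727 peaks (SD, n = 9), but its regions were far narrower, with a median of 140 bp (119 to 250 bp). Those narrow regions ranked high in the control lists, at a mean percentile of 90.9. Tile chr1:84860001-84880000 held 6 regions at a mean percentile of 64.2 with 7.33 ± 0.707 peaks, and chr13:22000001-22020000 held 6 at 71.8 with 6.78 ± 0.667 peaks (SD, n = 9 each). In the perturbed libraries the chromosome 9 tile kept all 7 regions in every library except ICRF-193 1 h replicate 1, which had 6. The chromosome 1 tile was the most variable of the 5, with 2 of its 6 regions in ICRF-193 1 h replicate 2 and 3 in Brg1 tamoxifen replicate 2.

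Larger neighbourhoods, in which dense tiles follow each other within 1 Mb, differed in how completely they were detected. At chr8:19680001-20000000, 4 tiles held 17 control-shared regions, and 16 of them had a peak in all 18 libraries. The single absence there was in ICRF-193 1 h replicate 2. At chr13:23520001-23860000, 5 tiles held 21 regions, 17 of them in all 18 libraries, and at chr11:3020001-3100000 it was 16 of 23. At chr9:20780001-21040000, by contrast, 2 of 8 regions were in all 18 libraries, and a perturbed library had a peak in 80.6% of the 8 on average. The Brg1 tamoxifen libraries had 9 and 5 of the 9 regions at chr8:87160001-87520000, and 7 and 4 of the 8 at chr17:84060001-84280000.

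Mean numbers of peaks per dense tile were lower in each perturbed group than in its controls, and so were the lengths of most lists. ICRF-193 for 24 h gave 5.58 and 4.99 peaks per tile, from lists of 98440 and 76898 peaks, and DMSO for 24 h gave 5.83 and 6.03, from lists of 98166 and 127030. ICRF-193 for 1 h gave 5.64, 4.46 and 5.99 peaks per tile (lists of 100932, 50611 and 95405), and DMSO for 1 h gave 6.03, 5.36 and 6.04 (lists of 121510, 58532 and 129880). The second library of both 1 h groups was short and low. Brg1 deletion gave 5.68 and 4.42 peaks per tile (lists of 84763 and 46431), and its ethanol controls 5.74 and 5.75 (lists of 107473 and 85007). Baf53a deletion gave 5.60 and 5.11 (lists of 88729 and 86960), and its ethanol controls 6.10 and 5.85 (lists of 110503 and 83918). The shortest list of all, Brg1 tamoxifen replicate 2, had the lowest value. Read depth is unknown, and a shorter list and fewer accessible sites cannot be told apart in these data. Because all controls took part in the choice of the tiles, these differences were not tested.

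**Figure D1:**
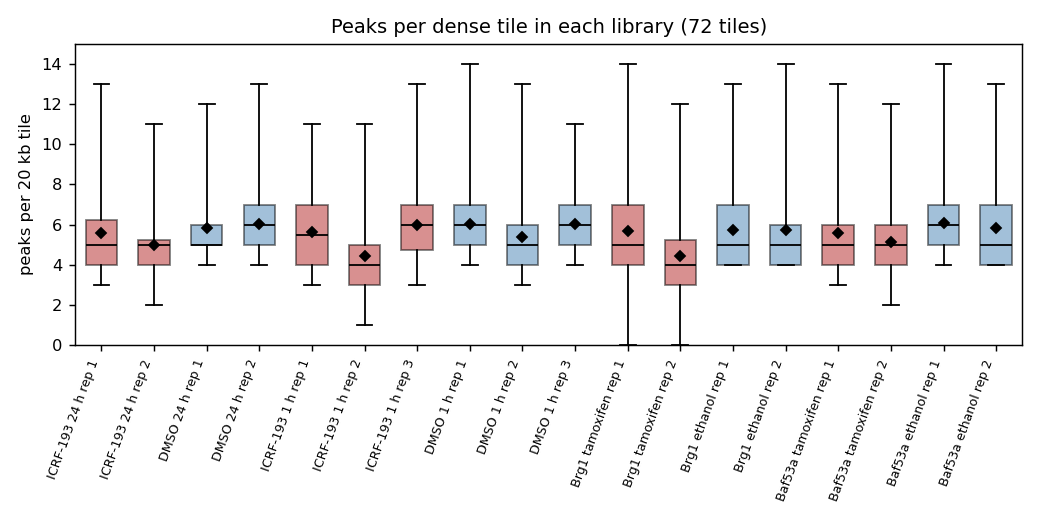
Number of peaks in each of the 72 dense tiles (vertical axis, peaks per 20 kb tile) for the 18 libraries, each perturbed group in red to the left of its controls in blue. Boxes span the quartiles with the median as a line, whiskers reach the lowest and highest tile, and diamonds mark the means, which run from 4.42 in Brg1 tamoxifen replicate 2 to 6.10 in Baf53a ethanol replicate 1.

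The perturbed libraries took no part in choosing the members, so their detection of the 305 regions is a measurement. A region counted as detected when a library had 1 or more peaks in it. All 9 perturbed libraries detected 183 of the 305 regions (60.0%), 1 library missed 59, 2 libraries missed 29, and 3 or more missed 34. The share detected by all 9 was close to the 58.8% of the other control-shared regions (17366 of 29531). No region was in fewer than 2 perturbed libraries. In 10 tiles every control-shared region was in all 18 libraries, and in 3 tiles none was.

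Without matching for strength, dense-tile regions were detected about as often as the other control-shared regions of the same lists. Of the dense-tile regions, 29.5% were in the weakest class of control percentile, against 19.9% of the others. Detection within classes of strength is given further below. The ICRF-193 24 h libraries detected 94.8% and 92.1% of dense-tile regions, against 95.8% and 91.3% of the others. For the 3 libraries of ICRF-193 at 1 h the values were 95.1%, 82.0% and 96.4% in dense tiles, against 98.1%, 83.6% and 97.5% elsewhere. Brg1 tamoxifen libraries detected 94.4% and 77.0%, against 90.9% and 71.5% of the others, so that dense tiles stood higher in both. Baf53a tamoxifen libraries detected 95.4% and 89.8%, against 96.2% and 91.7%. Over the 9 perturbed libraries the mean was 90.8% ± 6.80 in dense tiles and 90.7% ± 8.50 elsewhere (SD, n = 9). Dense tiles were higher in 3 libraries and lower in 6, with a mean difference of 0.0443 percentage points, and a two-sided exact sign-flip permutation test gave p = 0.969 (Benjamini-Hochberg adjusted p = 1 over the 11 permutation tests run). The sign of this mean depends on single libraries: it was -0.0586 without ICRF-193 24 h replicate 2, -0.393 without Brg1 tamoxifen replicate 1 and -0.639 without Brg1 tamoxifen replicate 2.

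**Figure D2:**
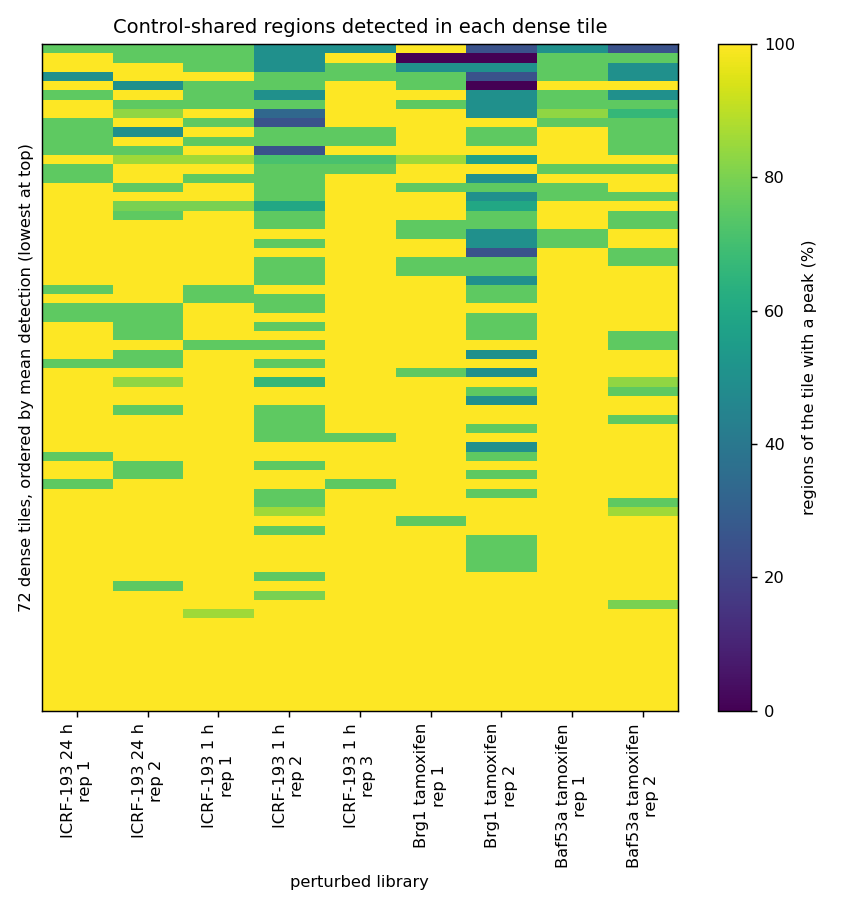
Percent of the control-shared regions of each dense tile (72 rows, lowest mean at the top) with a peak in each of the 9 perturbed libraries (columns), by colour from 0 to 100%. All regions were detected in 31 of the 72 tiles in each of ICRF-193 1 h replicate 2 and Brg1 tamoxifen replicate 2, and in 63 tiles in ICRF-193 1 h replicate 3.

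Regions with no peak in any library of a group were few. Neither ICRF-193 24 h library had a peak in 6 of the 305 regions, 1.97%, where the share over all control-shared regions was 1.86%. None of the 3 libraries of ICRF-193 at 1 h had a peak in 4 regions, 1.31%, where the share over all was 0.251%. Neither Brg1 tamoxifen library had a peak in 15 regions, 4.92%, where the share over all was 7.90%. Neither Baf53a tamoxifen library had a peak in 7 regions, 2.30%, where the share over all was 1.69%. These counts rest on few regions, which share tiles and lists, and no test was run on the shares.

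The 15 regions absent from both Brg1 tamoxifen libraries lay in 11 tiles, with 4 of them in 1 tile. Both Baf53a tamoxifen libraries had a peak in 6 of the 15 (40.0%), against 60.4% of all 2358 control-shared regions absent from both Brg1 tamoxifen libraries. All 5 ICRF-193 libraries had one in 6 of the 15 (40.0%), against 46.8% of all, and all 7 of these libraries had one in 3 (20%), against 30.7% of all. Neither Baf53a tamoxifen library had a peak in 3 of the 15 (20%), against 10.2% of all. With 15 regions these shares are a description only.

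Tiles with the lowest detection were named for each perturbed group as a description. They were picked for low values in that group, and every control holds all of their control-shared regions by the rule, so a separation of the groups in these tiles is built in by the choice. Tiles tied in detection were taken in order of their mean control percentile, highest first. For ICRF-193 at 24 h the lowest was chr13:22060001-22080000, with 3 and 2 of its 4 control-shared regions. A mean of 75% of regions was shared by 7 tiles, of which chr11:68840001-68860000 and chr6:122760001-122780000 ranked highest in the controls, each with 3 of 4 regions in both libraries. In the chromosome 13 tile the libraries of ICRF-193 at 24 h had 3 and 2 peaks and those of DMSO at 24 h had 5 and 5. At 1 h the lowest was chr4:132640001-132660000, with 3, 2 and 2 of 4 regions, followed by chr3:88280001-88300000 with 3, 1 and 4 and chr9:21020001-21040000 with 3, 2 and 3. The tile on chromosome 4 had 4, 3 and 4 peaks after ICRF-193 at 1 h, against 6 in each of the 3 DMSO libraries. Its regions were also the weakest of any dense tile in the controls, at a mean percentile of 48.1.

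After Brg1 deletion the lowest tile was chr14:97940001-97960000, with 0 of 4 regions in both tamoxifen libraries. Tile chr4:33000001-33020000 followed with 3 and 0 of 4, and chr14:27840001-27860000 with 3 and 1 of 4. Tile chr9:21020001-21040000, tied with the last of these, had 2 and 2 of 4. In the tiles on chromosome 4 and at chr14:27840001-27860000 the short replicate 2 list was the lower one, while the chromosome 9 tile was low in both libraries. The tile at chr4:33000001-33020000 had 4 and 1 peaks in Brg1 tamoxifen libraries, against 5 and 5 in Brg1 ethanol libraries. After Baf53a deletion the lowest was again chr4:132640001-132660000, with 2 and 1 of 4 regions, then 3 tied tiles, at chr6:136480001-136500000, chr14:27840001-27860000 and chr9:21020001-21040000, with 3 and 2 each. The chromosome 4 tile had 4 and 4 peaks in Baf53a tamoxifen libraries and 5 and 5 in Baf53a ethanol libraries.

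To test each perturbation against its own controls, the tiles were chosen again from the control libraries of the other 3 experiments. Neither group of a contrast then took part in its own choice. This gave 92 tiles with 392 regions for ICRF-193 at 24 h, 166 with 702 at 1 h, 101 with 422 for Brg1 and 101 with 428 for Baf53a.

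Detection in these tiles was lower on average after every perturbation. The smallest exact permutation p is 0.33 for 2 against 2 libraries and 0.1 for 3 against 3. No single contrast could therefore pass at 0.05, whatever its values. The differences given here are at the deposited list lengths. With equal numbers of peaks per list they were 0 points for ICRF-193 at 24 h, 1.33 at 1 h and -3.20 for Brg1. Over the 4 contrasts the mean was then -1.40 points. For Baf53a the difference lay between -7.38 and -1.88 points over the alternative settings that kept all libraries. After ICRF-193 for 24 h, 93.9% and 91.3% of dense-tile regions were detected, against 96.4% and 95.9% with DMSO, a difference of -3.57 percentage points. Both ICRF-193 values lay under both DMSO values, and the two-sided exact permutation p = 0.33 (adjusted 0.611) is the smallest that 2 against 2 allows. At 1 h the ICRF-193 libraries detected 94.3%, 75.9% and 94.2% and the DMSO libraries 98.6%, 79.1% and 97.4%, a difference of -3.56 points (exact permutation p = 0.5, adjusted 0.786). The groups overlapped, and the second library of each was low. Without ICRF-193 1 h replicate 2 the difference was 2.54 points, and without DMSO 1 h replicate 2 it was -9.88 points. Each of these omissions left the short second library of the other group in place. Between libraries of the same number the differences were -4.27, -3.13 and -3.28 points, but whether the numbers mark pairs is not known.

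Brg1 tamoxifen libraries detected 91.2% and 72.7% of dense-tile regions, against 95.0% in each ethanol library, a difference of -13.0 points. The groups did not overlap (exact permutation p = 0.33, adjusted 0.611), but the size rested on replicate 2, since the difference was -3.79 points without it and -22.3 points without replicate 1. Baf53a tamoxifen libraries detected 93.2% and 88.1%, against 98.4% and 91.4% with ethanol, a difference of -4.21 points with overlapping groups (exact permutation p = 0.667, adjusted 0.815). Leaving out 1 Baf53a library at a time moved that difference between -7.71 points (without ethanol replicate 2) and -0.701 points (without ethanol replicate 1). Over the 4 contrasts together, with labels permuted within each, the mean difference was -6.09 points (two-sided exact permutation p = 0.0824 over 4320 arrangements, adjusted 0.453). It was -3.78 points without Brg1 tamoxifen replicate 2. The perturbed library was lower than the control of the same number in every case. With a replicate block by these numbers the result passed after adjustment, as given under the processing settings below. Whether the numbers mark pairs is not known.

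**Figure D3:**
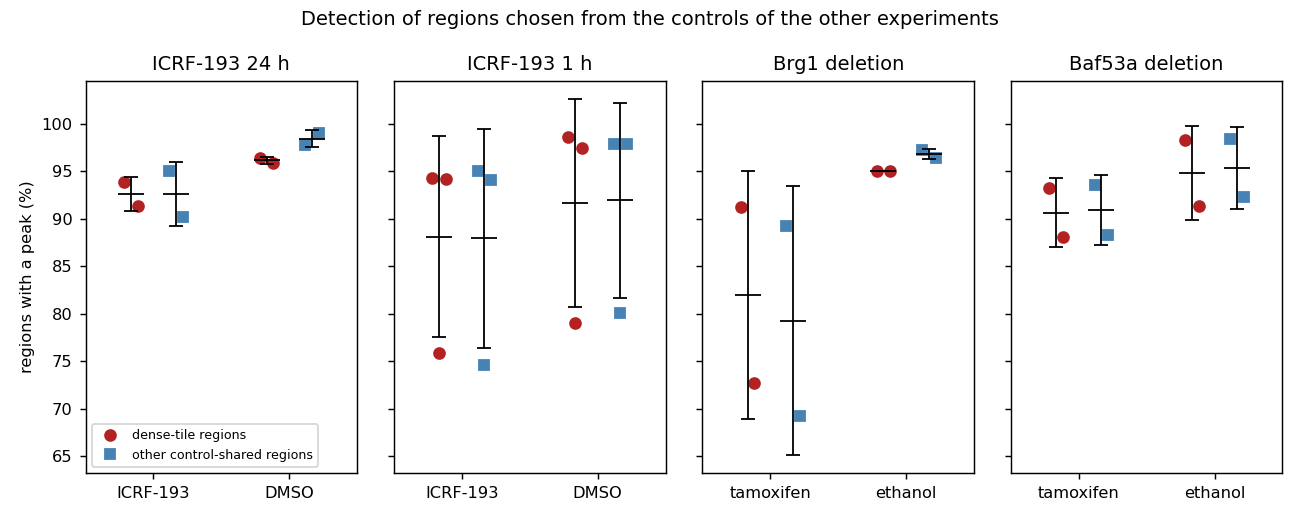
Percent of regions with a peak (vertical axis, from about 65%) in each library of the 4 contrasts, for regions of dense tiles (red circles) and other control-shared regions (blue squares), chosen from the controls of the other 3 experiments, with the perturbed group left of its controls. Long bars are means and whiskers 1 SD (n = 2 or 3), and the lowest dense-tile values are 72.7% in a Brg1 tamoxifen library and 75.9% in an ICRF-193 1 h library.

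Each list was next compared with itself, as detection in dense tiles minus detection in the other control-shared regions, which share the depth of the list. This difference was 1.94 and 3.47 points in the Brg1 tamoxifen libraries, against -2.22 and -1.42 points in their ethanol controls. Dense tiles thus stood above the other regions in both deleted libraries and under them in both controls, a contrast of 4.53 points, with the exact permutation p = 0.33 (adjusted 0.611) that is the smallest possible. It lay between 3.76 and 5.29 points when 1 library was left out. For ICRF-193 at 24 h it was -1.18 and 1.11 points, against -1.37 and -3.17 points for DMSO, a contrast of 2.23 points (exact permutation p = 0.33, adjusted 0.611) that was 1.09 points without ICRF-193 replicate 2 and 1.33 points without DMSO replicate 2.

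The remaining contrasts were smaller. At 1 h the ICRF-193 libraries had -0.772, 1.26 and 0.0286 points and the DMSO libraries 0.671, -1.06 and -0.436, a contrast of 0.448 points (exact permutation p = 0.6, adjusted 0.815) that turned to -0.0965 without ICRF-193 replicate 2. Baf53a tamoxifen libraries had -0.338 and -0.221 points and ethanol libraries -0.0347 and -0.990, a contrast of 0.232 points (exact permutation p = 1, adjusted 1) that turned to -0.245 without ethanol replicate 2. The mean of the 4 contrasts was 1.86 points (two-sided exact permutation p = 0.0208, adjusted 0.229), which did not pass after adjustment. Whether the Brg1 contrast differs from the others was not tested.

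Absences after Brg1 deletion were concentrated among regions that were weak in the controls, in dense tiles as elsewhere. The same held in the other perturbed libraries. In the weakest of the 5 classes, Brg1 tamoxifen replicates 1 and 2 detected 90.0% and 60.0% of the 90 dense-tile regions, against 79.2% and 45.6% of the other regions. In the middle class they detected 94.4% and 79.6% of 54 dense-tile regions, against 92.7% and 72.7%. In the strongest class they detected 100% and 97.5% of 40 dense-tile regions, against 99.5% and 94.8%. Dense-tile regions were at or above the others in every class and in both libraries, although they hold more weak regions. For Baf53a tamoxifen the weakest class gave 86.7% and 75.6% in dense tiles against 87.8% and 77.7% elsewhere, and for ICRF-193 at 24 h 86.7% and 80.0% against 86.8% and 75.6%. For ICRF-193 at 1 h the weakest class gave 86.7%, 60.0% and 87.8% in dense tiles against 93.0%, 56.1% and 90.5% elsewhere, so that dense tiles were lower in 2 of the 3 libraries. The classes use all controls, so these are descriptions without a test.

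**Figure D4:**
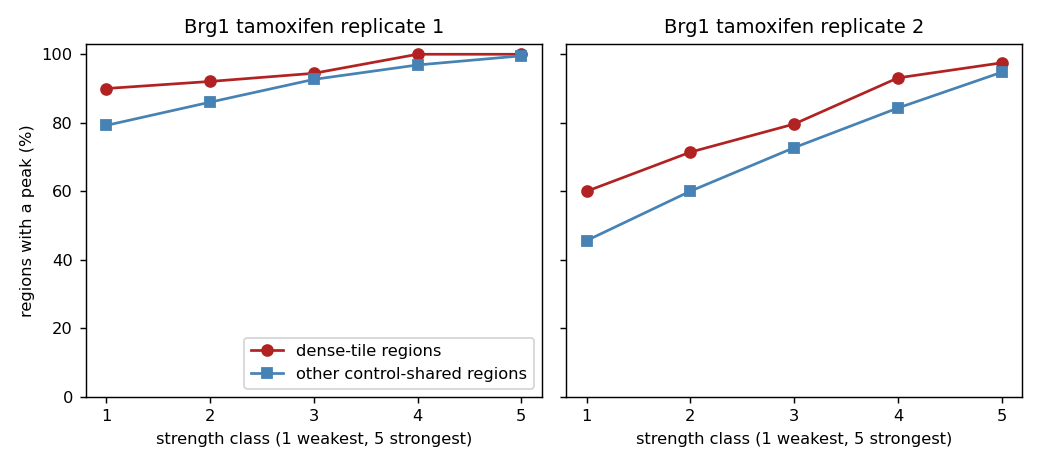
Percent of regions with a peak (vertical axis) in each Brg1 tamoxifen library, by class of mean control score percentile from 1 (weakest) to 5 (strongest), for dense tiles (red circles, 90 regions in class 1 and 40 in class 5) and other control-shared regions (blue squares). In replicate 2 dense tiles run from 60.0% to 97.5% and other regions from 45.6% to 94.8%.

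Numbers of peaks were then tested tile by tile with limma over 4290 tiles with a mean of 3 or more peaks, each number scaled by the length of its list. All of the 72 dense tiles, and all dense tiles chosen for the 4 contrasts, were among those tested. For the differences between contrasts, 172 of 174 and 263 of 264 dense tiles passed the filter on low numbers. For ICRF-193 at 24 h, limma called 0 of 92 dense tiles at a Benjamini-Hochberg adjusted p under 0.05, and 0% of all tiles. At an unadjusted p under 0.05 it was 0 of 92, with 3.08% of all tiles. For ICRF-193 at 1 h limma called 0 of 166 and 0% of all, with 4 dense tiles at an unadjusted p under 0.05 (4.31% of all tiles). For Baf53a it called 0 of 101 and 0% of all, with 1 at an unadjusted p under 0.05 (2.42% of all tiles).

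For Brg1 deletion limma called 2 of 101 dense tiles, both lower, where 0.140% of all tiles were called (0.117% lower and 0.0233% higher). At an unadjusted p under 0.05 it was 9 of 101 dense tiles, with 9.60% of all tiles. The median log2 change of dense tiles was 0.42 and that of all tiles 0.24 after scaling by list length. Without scaling the medians were -0.18 and -0.37, and after quantile normalization 0.04 and -0.05, so the sign of the general change is set by the scaling. With these 3 scalings the dense median was the higher one, but both medians were 0.17 without Brg1 tamoxifen replicate 2, and with no filter on low numbers it was 0.42 in dense tiles and 0.61 over all tiles. The Brg1 change minus the Baf53a change was called in 0 of 172 dense tiles (4 at an unadjusted p under 0.05, with 3.94% of all tiles). The difference between 24 h and 1 h of ICRF-193 was called in 0 of 263 (2 at an unadjusted p under 0.05, with 2.19% of all tiles). In both differences 0% of all tiles was called.

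The dense tile that lost all of its peaks was chr14:97940001-97960000. It had 0 and 0 peaks in Brg1 tamoxifen libraries, against 4 and 5 in Brg1 ethanol libraries. Baf53a tamoxifen libraries had 3 and 3 peaks and Baf53a ethanol libraries 4 and 4. ICRF-193 for 24 h gave 5 and 3 peaks and DMSO 5 and 6, and ICRF-193 for 1 h gave 4, 2 and 4 and DMSO 5, 5 and 6. Every library outside the Brg1 tamoxifen group thus had 2 or more peaks in the tile. The log2 change on the scaled and offset numbers was -2.71 (SE 0.45, Benjamini-Hochberg adjusted p in limma = 0.000131). With a group at 0 peaks the fitted value depends on the pseudocount and is no bound on the change. The call was kept without either tamoxifen or either ethanol library, with adjusted p in limma from 8.43e-05 to 0.0418.

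This tile holds 4 control-shared regions within 20 kb, and neither Brg1 tamoxifen library had a peak in any of them. The first 3 lie within 4 kb of each other, at chr14:97942285-97942590 (306 bp), chr14:97943548-97944488 (941 bp) and chr14:97945512-97945936 (425 bp). The fourth, chr14:97958812-97959110 (299 bp), stands apart at the other end. Their mean control percentiles were 51.3, 77.0, 67.1 and 65.1, so they were of weak to middling rank in the control lists. Outside Brg1 deletion the widest was in all 16 libraries, and the others were in 13, 14 and 15 of 16. The tile had 4 further merged regions, each in 1 or 2 control libraries and in no perturbed library.

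A second called tile, chr12:53480001-53500000, is dense only when the Brg1 controls are left out of the choice and is not among the 72. It had 1 and 0 peaks in Brg1 tamoxifen libraries, against 8 and 5 in Brg1 ethanol libraries. Baf53a tamoxifen libraries had 6 and 5 peaks and Baf53a ethanol libraries 7 and 5. ICRF-193 for 24 h gave 6 and 4 peaks and DMSO 9 and 6, and ICRF-193 for 1 h gave 6, 5 and 8 and DMSO 7, 6 and 7. In this tile, unlike the one on chromosome 14, the Brg1 tamoxifen libraries were the only ones under 4 peaks. The log2 change was -2.38 (SE 0.40, Benjamini-Hochberg adjusted p in limma = 0.000131). This call was lost without Brg1 tamoxifen replicate 2 (log2 change -2.02, limma adjusted p = 0.146) and without Brg1 ethanol replicate 1 (-2.23, limma adjusted p = 0.0507).

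Neither tile passed the test of a difference between the 2 deletions. The Brg1 change minus the Baf53a change was -2.48 (SE 0.63, limma adjusted p = 0.394) for the chromosome 14 tile and -2.40 (SE 0.56, limma adjusted p = 0.222) for the chromosome 12 tile, both on the log2 scale. Without Brg1 tamoxifen replicate 1 the chromosome 12 tile passed (-2.76, limma adjusted p = 0.0386).

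**Figure D5:**
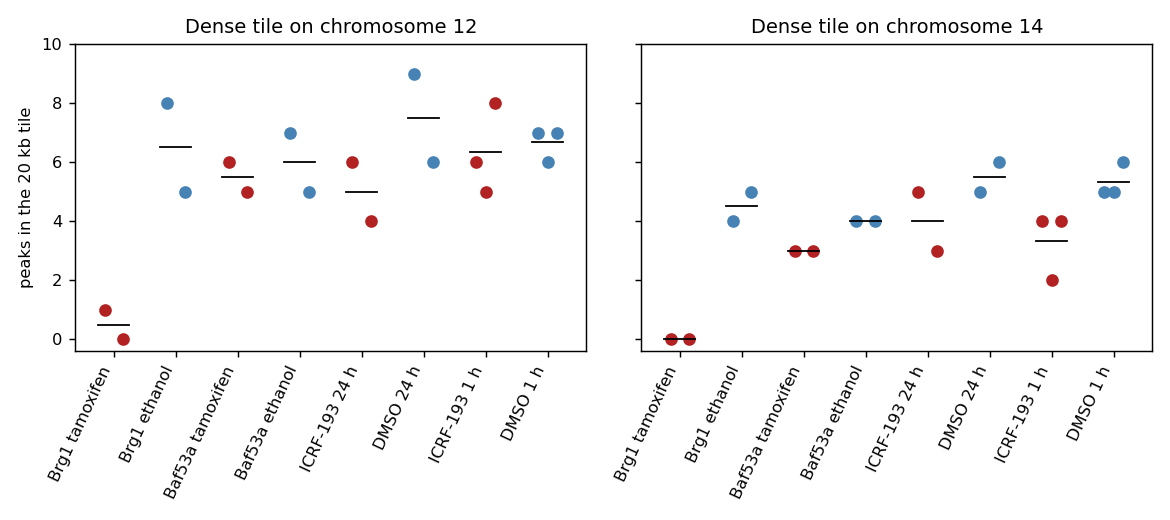
Number of peaks in the dense tiles on chromosome 12 (53480001 to 53500000) and chromosome 14 (97940001 to 97960000) in each library, perturbed groups in red and their controls in blue to the right, with bars at group means. The Brg1 tamoxifen libraries have 1 and 0 peaks in the first and 0 and 0 in the second, and all other libraries have 2 or more.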

How the data were processed

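The deposited files are 1 peak list per library, called by the authors for each sample. The submitters' processing notes name mm9 as the build and list edgeR 3.12.1, MACS2 and Bowtie 0.12.9 without saying what each did. How reads were shifted, filtered and thresholded is not given in the sources used here. Peak starts and ends are other deposited values, printed counted from 1. The score is the authors' own, of unstated unit, and ranked and filtered peaks inside single lists. The files give no read counts, which leaves depth unknown and allows no counting interval. Lists hold 46431 to 129880 peaks.

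Merging, tiles and detection were computed with Python 3.11.15, numpy 2.4.6, pandas 2.3.3 and scipy 1.17.1. Exact permutation tests over libraries were adjusted by Benjamini-Hochberg over 11 tests. Numbers of peaks per tile, as log2((peaks + 0.5) / peaks of the list on chromosomes 1 to 19 × 100000), were fitted with limma 3.58.1 in R 4.3.3, with 1 term per group over all 18 libraries and a variance trend. Count models were not used, because peaks are not reads. Both steps were also run on simulated data, but the outcome is not given here and is not used as support for any result.

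Tiles were named by rule: the 5 with the most control-shared regions, the 3 with the lowest detection in each perturbed group, and called dense tiles. The members, lists and tests were chosen with earlier results of these data known. Alternatives changed tile size and offset, the number of regions per tile, list length, score threshold, overlap, scaling and pseudocount, or left out each library. No sequence is printed, since no genome of this build was used here.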

Additional observations from a re-analysis of the deposited data

How the results depend on the processing

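Of 294 values recomputed under alternative settings, 263 were counted as kept, 16 changed sign, 6 passed a threshold they had not passed and 2 lost one. The other 7 were 5 counts that moved by over 1.5 times and 2 differences that came to 0. The cause of these changes was not tested except where the setting itself gives it. Detection in dense tiles over the 4 contrasts was -9.26 points (exact permutation test, adjusted p = 0.00509) when tiles were chosen by all 9 controls, which sets every control to 100% by construction. With equal numbers of peaks per list it was -1.40 over the 4 contrasts, -3.20 for Brg1, 0 for ICRF-193 at 24 h and 1.33 at 1 h. It was also 0 for ICRF-193 at 24 h with 5 or more regions per tile. Dense minus other detection over the 4 contrasts passed with 5 or more regions per tile (4.38 points, exact permutation test, adjusted p = 0.0357), a stricter score threshold (3.20, adjusted p = 0.0407) and detection that needs 50% of a region covered (5.41, adjusted p = 0.0430). It was 0.290 when chosen by all 9 controls, and over all alternatives its adjusted p ran from 0.0357 to 0.890. For ICRF-193 at 1 h dense minus other detection was -0.187 with 3 or more regions per tile, -2.50 in 10 kb tiles, -0.320 with 50% covered and -1.92 when chosen by all 9 controls. For Baf53a it was -0.0135 with 3 or more regions, -1.35 when chosen by all 9 controls and 6.64 with 50% covered, and for ICRF-193 at 24 h -0.105 when chosen by all 9 controls. Dense against other regions in the perturbed libraries was 8.23 points with 50% covered (exact permutation test, adjusted p = 0.0430) and -1.26 with equal numbers of peaks. Without tiles near chromosome starts, a setting chosen after seeing the data, it was -0.292.

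Leaving out 1 library at a time gave ranges of -4.85 to -2.30 points for detection after ICRF-193 at 24 h, -9.88 to 2.54 at 1 h, -22.3 to -3.79 for Brg1, -7.71 to -0.701 for Baf53a, and -8.40 to -3.78 over the 4 contrasts. For dense minus other detection the ranges were 1.09 to 3.38 after ICRF-193 at 24 h, -0.0965 to 0.921 at 1 h, 3.76 to 5.29 for Brg1, -0.245 to 0.710 for Baf53a, and 1.57 to 2.15 over the 4 contrasts. Dense against other regions ranged from -0.639 to 0.429. Dense tiles called for Brg1 numbered 1 to 2, and for Brg1 minus Baf53a 0 to 1, with the 1 call (the chromosome 12 tile) made without Brg1 tamoxifen replicate 1.

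All-tile calls for Brg1 (6 of 4290) were 2 without scaling, 3 after quantile normalization, with a pseudocount of 1 or a mean of 2 or more peaks, 13 with no filter, 137 without tamoxifen replicate 1, and 1 without tamoxifen replicate 2 or without ethanol replicate 1. With equal numbers of peaks, which left 526 tiles and not the chromosome 14 tile, 3 dense tiles were called for Brg1 and 1 for Brg1 minus Baf53a, at chr19:36300001-36320000.

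Same-numbered libraries correlated at 0.0073 (ICRF-193 24 h), 0.171, 0.259 and 0.0849 (1 h), 0.0252 (Brg1) and 0.0674 (Baf53a), and the third 1 h library correlated no better with its own number than with another. ICRF-193 1 h replicate 2 correlated at -0.193 and -0.161 with the DMSO libraries of the other numbers. All of these are correlations of deviations from group means, which cancel within each group. Negative values thus accompany a positive same-number value by construction and add nothing on pairing. Whether the numbers mark pairs is therefore not settled, least of all at 1 h, where both second lists were short. With a replicate block, detection over the 4 contrasts was -6.09 points (exact permutation test, adjusted p = 0.0430), 21 of 4290 tiles were called for Brg1 with 2 dense ones among them, and 1 dense tile, on chromosome 12, for Brg1 minus Baf53a. The perturbed library was lower than the control of the same number in all 9 cases, with differences from -22.3 to -2.55 points.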

Other observations

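Without the 6 dense tiles that lie under 1 Mb from the first peak of their chromosome, 271 control-shared regions remained. Brg1 tamoxifen libraries then detected 94.1% and 75.6% of them, ICRF-193 24 h libraries 94.5% and 91.5%, ICRF-193 1 h libraries 95.6%, 81.2% and 97.0%, and Baf53a tamoxifen libraries 94.8% and 89.7%. These values were chosen for display after the data were seen.

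Peaks covered a mean of 8.33% ± 1.37 of the bases of the 72 dense tiles after ICRF-193 for 24 h and 9.72% ± 0.487 with DMSO (SD, n = 2 each), and 8.36% ± 1.99 after 1 h and 9.25% ± 2.27 with DMSO (SD, n = 3 each). Brg1 tamoxifen libraries had 7.81% ± 2.65 and ethanol libraries 9.32% ± 0.289, and Baf53a tamoxifen libraries 8.89% ± 0.785 and ethanol libraries 9.65% ± 1.60 (SD, n = 2 each). The control libraries took part in choosing the tiles, so these differences were not tested.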
